A study of Mus musculus with 6 samples.

Results

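The Anks1b circRNAs are circular RNAs made from the mouse gene Anks1b, and 5 of them were found among 1927 circRNAs in the study's annotation tables. They were selected by their host gene from a list of differentially expressed circRNAs, held complete with 218 circRNAs, and from a table of all circRNAs, of which the first 1734 entries were held. Further circRNAs of this gene beyond those entries were not analysed here. Of the 5, mmu_circRNA_010003 and mmu_circRNA_005340 were on the list of differentially expressed circRNAs, and mmu_circRNA_005340 was found through that list alone. That list was drawn up from these same arrays, so for these 2 circRNAs the difference between genotypes is a description and no test is given.

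Cortical microglia came from 6-month-old male mice, 3 wild-type (WT) samples and 3 APP/PS1 samples, with different donors in each experiment. APP/PS1 mice carry the transgenes APPswe and PSEN1dE9 and are a model of amyloid deposition, and no transgene promoter is given in the sources used here. Cells were collected with magnetic beads carrying an antibody against CD11b, a surface protein that other myeloid cells also carry. Their RNA was digested with RNase R, which removes linear RNA, and each sample was hybridized with Cy3 to an array with 14236 circRNA probes of 1 spot each.

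A circRNA forms when a splice donor joins to an acceptor upstream of it, a reaction called back-splicing that competes with linear splicing and leaves no free end. Anks1b encodes AIDA-1, a scaffold protein with ankyrin repeats, SAM domains and a phosphotyrosine-binding domain that binds the intracellular part of the amyloid precursor protein. AIDA-1 is known as an abundant protein of the postsynaptic density of neurons, where it binds PSD-95 and NMDA receptor complexes. Linear Anks1b RNA was not analysed here.

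All 5 circRNAs were annotated on the plus strand of chromosome 10. The annotation names no build beside the positions, which are given here counted from 1. Of 1660 circRNAs whose transcript RefSeq lists for GRCm38.p6, 1626 lay inside the gene of that transcript on that build, and all 5 Anks1b circRNAs lay inside Anks1b. The scanner header names another build, mm9, for the array design. A further set of positions that the annotation gives for 2 members overlapped Anks1b on GRCm38.p6 for 0 of 2. The positions used here were therefore read as GRCm38, and their distances to transcription starts rest on that reading. The circRNA mmu_circRNA_005340, at chr10:90914696-90948672, was exonic, 503 nt long after removal of introns and assigned to the transcript NM_001177396. The circRNA mmu_circRNA_010003, at chr10:90914696-90923602, was exonic and 273 nt long, the shortest of the 5, and was assigned to uc033frx.1. These 2 share their start, so the back-splice acceptor is the same and the donor differs. The circRNA mmu_circRNA_002573, at chr10:90895099-90948672, was exonic, 539 nt long and assigned to NM_181398; it shares its end with mmu_circRNA_005340. These 3 come from the database circBase. Far upstream, mmu_circRNA_22415 was exonic and 1635 nt long, spanning 517759 bases at chr10:90163161-90680919 on NM_001128086. The only intronic member, mmu_circRNA_22404, covered 29029 bases at chr10:90048114-90077142 on ENSMUST00000182907.

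**Figure D1:**
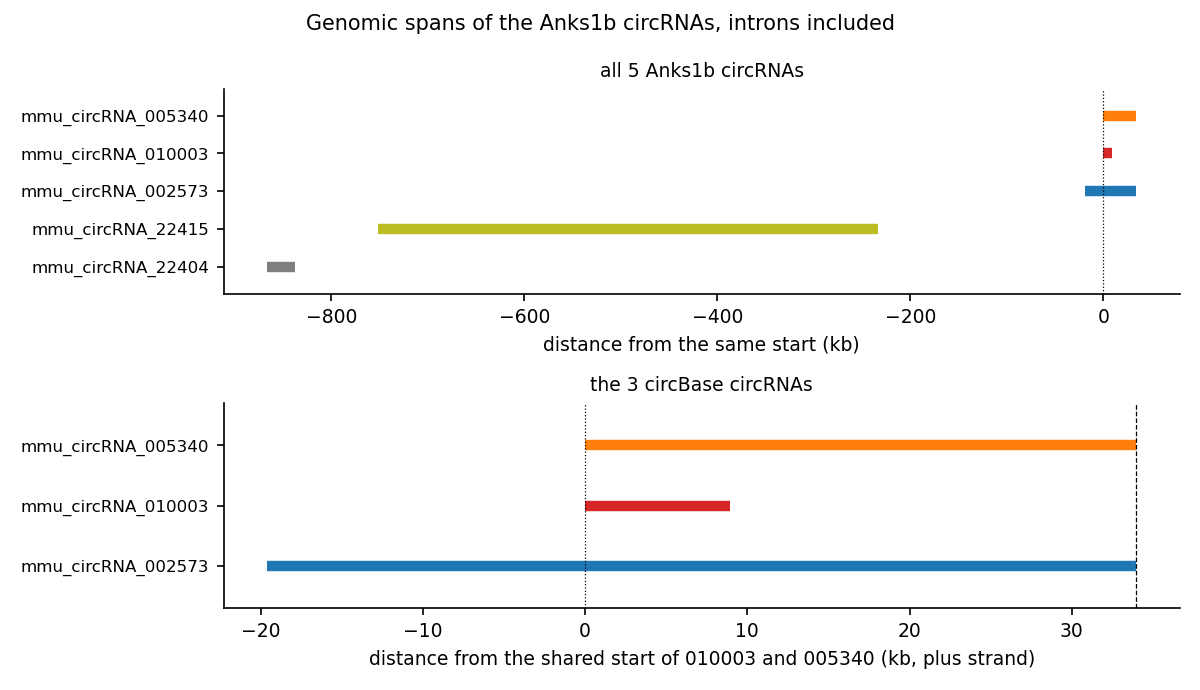
Genomic span of each Anks1b circRNA, introns included, as distance in kb along the plus strand from the shared start of mmu_circRNA_010003 and mmu_circRNA_005340; the upper panel holds all 5 and the lower panel the 3 from circBase. The dotted line marks the shared start of mmu_circRNA_010003 and mmu_circRNA_005340, and the dashed line the shared end of mmu_circRNA_002573 and mmu_circRNA_005340.

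The RefSeq promoters used here hold 5 transcription starts of Anks1b on GRCm38.p6, and the members differ in which of these lie upstream of them. The RefSeq gene itself begins at 89872915, upstream of site 1 at 89873509. The intronic mmu_circRNA_22404 and the exonic mmu_circRNA_22415 start after the first site only, with sites 2 and 3 inside the span of mmu_circRNA_22415. The 3 circRNAs from circBase lie after all 5, and the last site is 84853 bases upstream of the shared start of mmu_circRNA_010003 and mmu_circRNA_005340. To show what separates these starts, the 100 bases before site 1 (chr10:89873409-89873508), site 4 (chr10:90829554-90829653) and site 5 (chr10:90829743-90829842) are printed from RefSeq, GRCm38.p6, plus strand. Capitals mark the GC box GGGCGG, or CCGCCC where it lies on the other strand.
Anks1b start site 1: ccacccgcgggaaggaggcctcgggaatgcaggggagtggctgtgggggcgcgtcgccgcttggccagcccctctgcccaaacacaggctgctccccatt
Anks1b start site 4: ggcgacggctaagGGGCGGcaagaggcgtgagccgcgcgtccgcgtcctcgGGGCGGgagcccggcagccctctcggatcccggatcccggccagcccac
Anks1b start site 5: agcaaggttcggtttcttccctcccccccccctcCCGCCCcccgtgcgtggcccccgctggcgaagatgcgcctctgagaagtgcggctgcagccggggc
In the 250 bases before the start, sites 4 and 5 held 3 and 4 GC boxes and the other 3 sites held none. The windows of sites 4 and 5 share 61 bases, and 1 box lies in both, so they hold 6 different boxes. At least 1 box was found in 32.7% of 32851 RefSeq promoters. The motif TATAAA, searched on both strands, was in 0 of the 5 windows and in 12.4% of all promoters. The GC content of these windows was 70.4% at site 1, 49.2% at site 2, 48.4% at site 3, 75.2% at site 4 and 78% at site 5, against a median of 52.4% over all promoters. Which start gives rise to which circRNA was not tested.

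Signal is given as log2 of the processed intensity of a spot, which the scanner software has corrected for background, after quantile normalization between arrays. Well above background means that the scanner software placed the spot above its local background with its own test. Among all circRNA probes, 87.6%, 94.8% and 94.0% were well above background in the WT samples and 87.0%, 96.9% and 92.8% in the APP/PS1 samples. Here and throughout, the 3 values of a genotype follow the order of replicates 1, 2 and 3, which carries no meaning of its own. A single slide held all arrays, with WT samples in its row 1 and APP/PS1 samples in its row 2, so an effect of the row and one of genotype cannot be told apart. The number of arrays, 3 per genotype, limits the precision.

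After quantile normalization, signals of mmu_circRNA_005340 and mmu_circRNA_010003 kept a nearly fixed distance within each genotype. So did those of mmu_circRNA_22404 and mmu_circRNA_002573, which share neither start nor end. The signals of mmu_circRNA_005340 and mmu_circRNA_010003 were 1.96-fold and 1.92-fold higher in APP/PS1 microglia, the difference for which both were listed. The signal of mmu_circRNA_002573 lay slightly higher and that of the intronic mmu_circRNA_22404 lower, and neither passed an adjusted limma p of 0.05, as was so for every one of 13420 probes tested. Signal of mmu_circRNA_22415 was close to background and overlapped between genotypes.

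The spot of mmu_circRNA_005340 stood far above its local background on every array. Its median spot signal was 67.1, 87.6 and 94.9 times the local background in the WT samples and 235, 254 and 171 times in the APP/PS1 samples. Before normalization, its processed intensity was 1444, 1391 and 1336 in the WT samples and 3406, 4084 and 2775 in the APP/PS1 samples. All APP/PS1 values lay above all WT values on this scale, as for 19.2% of the 13407 probes with values on every array. The normalized log2 signal was 10.49, 10.64 and 10.71 in the WT samples and 11.93, 11.56 and 11.25 in the APP/PS1 samples. All 3 APP/PS1 samples lay above all 3 WT samples, as for 12.3% of all probes tested, with APP/PS1 replicate 1 the highest and replicate 3 the lowest of their group on this scale. The group means were 10.61 ± 0.11 (SD, n = 3) and 11.58 ± 0.34 (SD, n = 3), a log2 fold change of 0.97 with a standard error of 0.18. The spread among APP/PS1 samples was the wider one. In these bulk samples, a change in the number of cells that hold a circRNA and a change in its amount per cell cannot be told apart.

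Sharing its start with that circRNA, mmu_circRNA_010003 had a median spot signal of 13.3, 20.6 and 21.8 times the local background in the WT samples and 35.7, 55.4 and 38.0 times in the APP/PS1 samples. Its processed intensity before normalization was 264, 277 and 264 in the WT samples and 676, 813 and 506 in the APP/PS1 samples. These ranges did not overlap, with the APP/PS1 values above, as for 19.2% of probes before normalization. The normalized log2 signal was 8.12, 8.24 and 8.32 in the WT samples and 9.49, 9.23 and 8.78 in the APP/PS1 samples. Every APP/PS1 sample lay above every WT sample, the order seen for 12.3% of probes, and on this scale the order of the samples within each genotype was that of mmu_circRNA_005340. The group means were 8.23 ± 0.10 (SD, n = 3) and 9.17 ± 0.36 (SD, n = 3), a log2 fold change of 0.94 with a standard error of 0.19.

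Both circRNAs passed a fold change of 1.5 with an unadjusted limma p under 0.05, as did 423 (3.15%) of 13420 probes tested in this direction. This passing follows from how the list was made and supports nothing. In the other direction 303 probes (2.26%) passed, so 726 (5.41%) passed in all. With the methods' t-test in place of limma, 282 probes were higher and 202 lower. Scaling each array to its 75th percentile turned this split to 331 higher and 422 lower, and analysis without normalization between arrays gave 1538 higher and 48 lower, with a median log2 fold change over all probes of 0.26. Relative to that shift, the log2 fold changes of mmu_circRNA_005340 and mmu_circRNA_010003 were both 1.02 without normalization. No probe (0.0%) passed an adjusted limma p of 0.05, while 2384 (17.8%) had an unadjusted p under 0.05 and the methods' t-test left 4 after adjustment. Counted from the highest log2 fold change, mmu_circRNA_005340 ranked 74 and mmu_circRNA_010003 ranked 90 among all probes tested, as the plot of all probes shows.

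**Figure D2:**
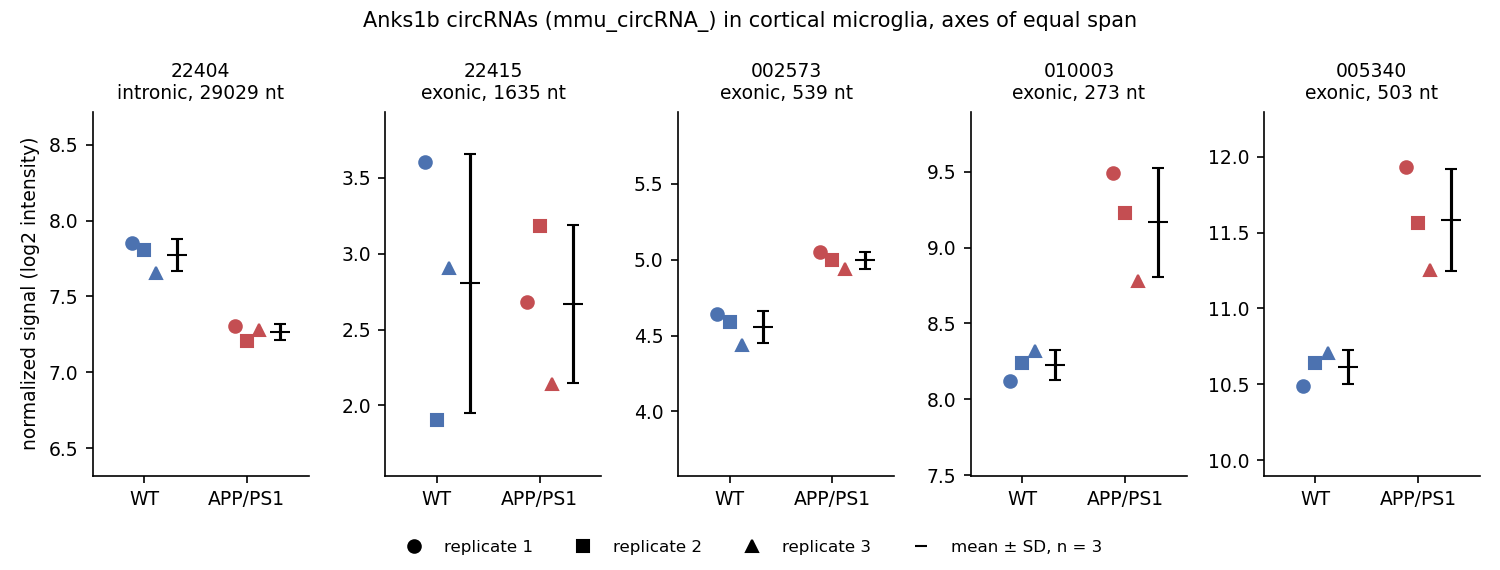
Normalized log2 intensity of the 5 Anks1b circRNAs in each WT (blue) and APP/PS1 (red) sample, with marker shape for the replicate and the mean ± SD (n = 3) at the right of each group; every axis spans the same number of log2 units. All APP/PS1 samples lie above all WT samples for mmu_circRNA_002573, mmu_circRNA_010003 and mmu_circRNA_005340 and below them for mmu_circRNA_22404, as for 12.3% and 12.8% of all probes tested, while the genotypes overlap for mmu_circRNA_22415. For mmu_circRNA_002573 they also overlap after normexp background correction and in the authors' processed values, and for mmu_circRNA_22404 without normalization between arrays.

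The remaining circRNA from circBase, mmu_circRNA_002573, shares its end with mmu_circRNA_005340 and starts further upstream. Its signal was well above background on all 6 arrays but dim, between 2.86 and 4.38 times the local background. The processed intensity was 23.8, 22.9 and 18.9 in the WT samples and 30.1, 39.9 and 34.3 in the APP/PS1 samples. The normalized log2 signal was 4.64, 4.59 and 4.44 in the WT samples and 5.05, 5.0 and 4.94 in the APP/PS1 samples. On this scale all APP/PS1 samples lay above all WT samples, as for 12.3% of all probes tested. The means were 4.56 ± 0.11 (SD, n = 3) and 5.0 ± 0.06 (SD, n = 3), and the log2 fold change was 0.44 with a standard error of 0.11 and an adjusted limma p of 0.132, above the threshold. The size depended on the background correction, since it was 0.09 after normexp with an offset of 50 and 0.15 in the authors' processed values. Without normalization it was 0.67, or 0.40 relative to the median of all probes, and there alone it passed a fold change of 1.5 with an unadjusted p under 0.05, at an adjusted limma p of 0.160. In the authors' processed values the samples overlapped, with 5.74, 5.51 and 5.47 in the WT samples and 5.69, 5.74 and 5.74 in the APP/PS1 samples.

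The exonic mmu_circRNA_22415 was at the edge of detection. Its spot was well above background in 2 of 3 WT samples (replicates 1 and 3) and in 1 of 3 APP/PS1 samples (replicate 2), and its median signal was between 1.79 and 2.39 times the local background. The normalized log2 signal was 3.60, 1.90 and 2.91 in the WT samples and 2.68, 3.19 and 2.14 in the APP/PS1 samples. The highest and the lowest value were both WT samples, and the genotypes overlapped. The means were 2.80 ± 0.86 (SD, n = 3) and 2.67 ± 0.52 (SD, n = 3), with a log2 fold change of -0.14, a standard error of 0.44 and an adjusted limma p of 0.912. A difference of this size was not detectable at this signal, and its sign turned to 0.26 without WT replicate 1 and to 0.13 without APP/PS1 replicate 3. The scanner software's own error was between 14.4% and 38.3% of the processed intensity for this spot, against 10.0% on each array for mmu_circRNA_005340.

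Alone among the 5, the intronic mmu_circRNA_22404 had all its APP/PS1 samples below all WT samples. Its normalized log2 signal was 7.85, 7.80 and 7.65 in the WT samples and 7.31, 7.21 and 7.28 in the APP/PS1 samples. Such an order was seen for 12.8% of all probes tested. The means were 7.77 ± 0.11 (SD, n = 3) and 7.26 ± 0.05 (SD, n = 3), and the log2 fold change was -0.51 with a standard error of 0.11. The adjusted limma p was 0.124, above the threshold, and the change was under a fold change of 1.5. This adjusted p was the lowest over all probes and was shared by 255 of them, and 241 probes had a lower unadjusted p than this one. Before normalization the processed intensity was 215, 204 and 168 in the WT samples and 147, 193 and 176 in the APP/PS1 samples. These ranges overlapped, and the log2 fold change without normalization was -0.19, or -0.45 relative to the median of all probes. Over the probes tested, the median processed intensity stood at 49.2, 48.3 and 43.5 in the WT samples and at 46.7, 64.0 and 57.2 in the APP/PS1 samples. Normexp with an offset of 50 gave -0.32.

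**Figure D3:**
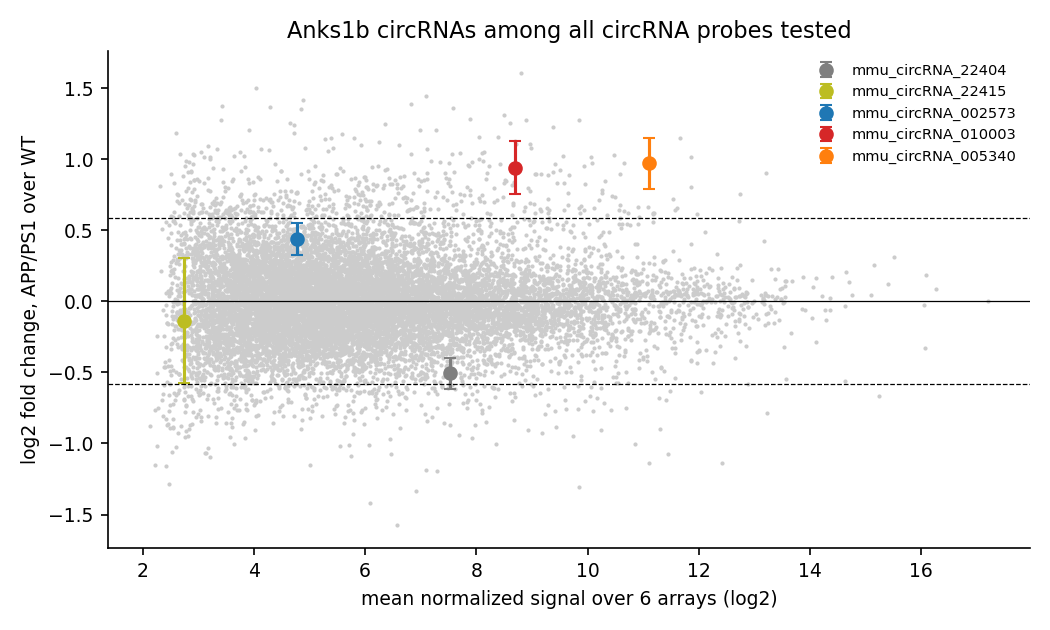
Log2 fold change of APP/PS1 over WT against the mean normalized log2 signal of each of the 13420 circRNA probes tested (grey), with the 5 Anks1b circRNAs in colour and their standard errors as bars; dashed lines mark a fold change of 1.5 in either direction. Only mmu_circRNA_010003 (0.94) and mmu_circRNA_005340 (0.97) among the 5 lie beyond a dashed line.

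Differences between isoforms were taken within each array. Probes differ in how brightly they report the same amount of RNA, so the size of such a difference carries no information on relative abundance. Only its constancy over the arrays of a genotype is read. The difference of mmu_circRNA_005340 minus mmu_circRNA_010003 was 2.37, 2.40 and 2.39 (log2) in the WT samples and 2.44, 2.34 and 2.47 in the APP/PS1 samples. Within each genotype, the pair with the shared start thus kept a nearly fixed distance, with 2.39 ± 0.015 (SD, n = 3) in WT and 2.42 ± 0.070 (SD, n = 3) in APP/PS1 samples. The difference between genotypes was 0.03. Both circRNAs were listed for a difference between these genotypes, so nothing is read from how small this value is. Over the normalizations, background corrections and filters tried, this difference between genotypes lay between -0.03 and 0.12. The latter was after normexp with an offset of 50, where all APP/PS1 values lay above all WT values. The constancy also varied with the processing. With 75th percentile scaling the differences were 2.45, 2.33 and 2.34 in the WT samples and 2.33, 2.33 and 2.46 in the APP/PS1 samples. Nor was it particular to the shared start. After quantile normalization, mmu_circRNA_22404 minus mmu_circRNA_002573, which share neither start nor end, had an SD of 0.0038 in WT and 0.069 in APP/PS1 samples.

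For the pair with the shared end, mmu_circRNA_005340 minus mmu_circRNA_002573, the difference was 5.85, 6.05 and 6.27 in the WT samples and 6.88, 6.57 and 6.32 in the APP/PS1 samples. It was higher in every APP/PS1 sample than in any WT sample, but WT replicate 3 and APP/PS1 replicate 3 were nearly equal, and the genotypes overlapped after cyclic loess normalization. Since mmu_circRNA_005340 was listed for its difference, its signal minus that of another probe was in this order for 87.9% of 13406 probes, so nothing is read from the order. The means were 6.05 ± 0.21 (SD, n = 3) and 6.59 ± 0.28 (SD, n = 3), a shift of 0.53 (log2), which was 0.47 after cyclic loess and 0.83 after normexp with an offset of 50. Over all other probes the median shift was 0.98. This shift was not tested.

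**Figure D4:**
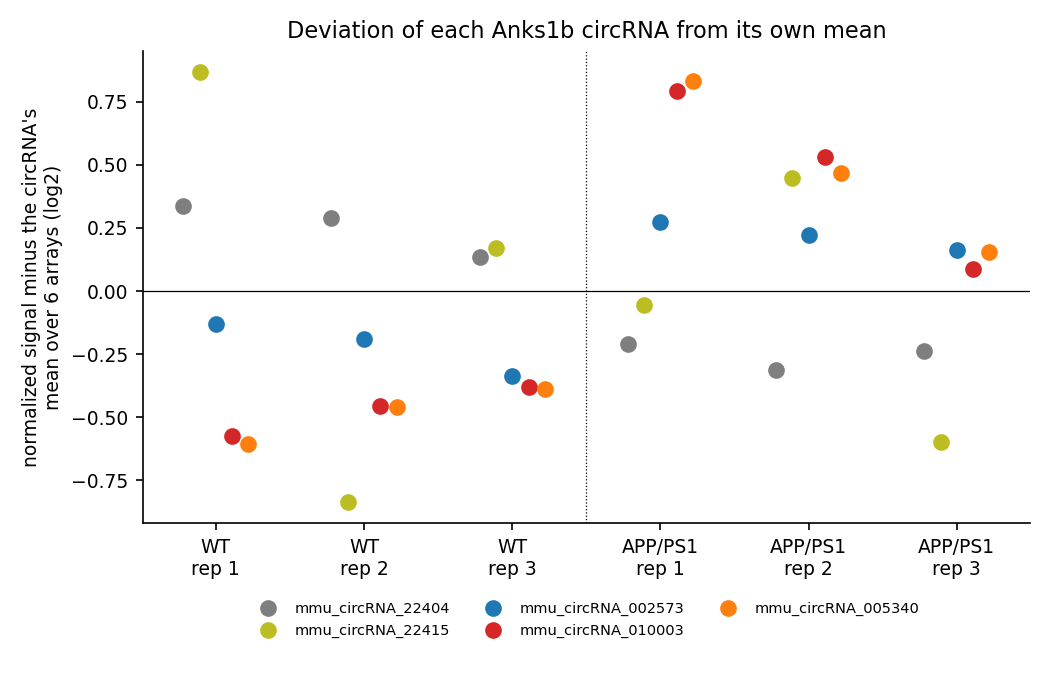
Normalized log2 signal of each Anks1b circRNA minus its own mean over the 6 arrays, by array, with 1 colour per circRNA and small horizontal offsets to keep points apart; the dotted line divides WT from APP/PS1. The points of mmu_circRNA_010003 and mmu_circRNA_005340 lie beside each other on every array, with a root-mean-square difference of 0.0441, whereas those of mmu_circRNA_22404 lie on the other side of 0 from both on all 6 arrays, but on 4 without normalization, and from mmu_circRNA_010003 on 5 with the median spot signal and with normexp at an offset of 50.

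Likeness of profiles was measured as the root-mean-square difference over the 6 arrays, after each probe was centred on its own mean. For mmu_circRNA_010003, the closest of 13406 other probes with values on all arrays was mmu_circRNA_005340, at 0.0441 (log2), while the median probe was at 0.564. For mmu_circRNA_005340, mmu_circRNA_010003 ranked 2, and the median probe was at 0.574. Over the normalizations, background corrections and filters tried, these ranks lay between 1 and 6 and between 1 and 9. The circRNA with the shared end, mmu_circRNA_002573, ranked 650 and 661, with differences of 0.327 and 0.335. The intronic mmu_circRNA_22404 ranked 12422 and 12432, near the far end. Ranks of mmu_circRNA_22415 were 12656 and 12760, but its spot was close to background, so nothing is read from them.

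**Figure D5:**
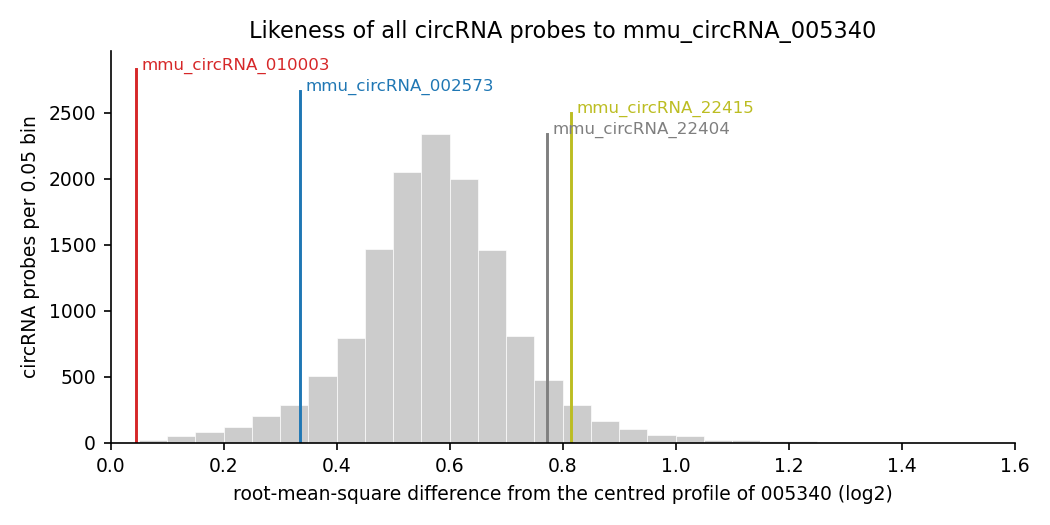
Number of circRNA probes by root-mean-square difference (log2) of their centred profile from that of mmu_circRNA_005340, in bins of 0.05, with coloured lines at the other 4 Anks1b circRNAs. The median probe lies at 0.574, mmu_circRNA_010003 at 0.0441, mmu_circRNA_002573 at 0.335, mmu_circRNA_22404 at 0.771 and mmu_circRNA_22415 at 0.815.

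Part of this likeness is the genotype difference by which both circRNAs were listed, so the deviations of each sample from its own genotype mean were also compared. The deviations of mmu_circRNA_005340 were -0.12, 0.03 and 0.10 in the WT samples and 0.35, -0.02 and -0.33 in the APP/PS1 samples. Those of mmu_circRNA_010003 were -0.11, 0.01 and 0.09 in the WT samples and 0.32, 0.06 and -0.38 in the APP/PS1 samples. The order of samples depended on the normalization. Without it, APP/PS1 replicate 2 was the highest of its genotype for both circRNAs, and WT replicate 1 was the highest WT sample for mmu_circRNA_005340 where it is the lowest here. The root-mean-square difference of these deviations was 0.0415, which ranked 6 of 13406 for mmu_circRNA_010003 and 17 for mmu_circRNA_005340, against medians of 0.277 and 0.270. Over the normalizations, background corrections and filters tried, these ranks lay between 4 and 18 and between 9 and 51. The circRNAs mmu_circRNA_002573 and mmu_circRNA_22404 ranked 2930 and 4232 in deviations from mmu_circRNA_010003, and 3099 and 4075 from mmu_circRNA_005340. The dim mmu_circRNA_22415 ranked 13092 and 13164, but its ranks went down to 2634 and 3871 over the same settings, and those of mmu_circRNA_002573 up to 7852 and 7464. Whether the probes of the pair share bases, or can bind each other's circRNA, was not tested.

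Among circRNAs with a name and host gene, other Anks1b circRNAs apart, the closest to mmu_circRNA_005340 was mmu_circRNA_013857 of Kpnb1, which encodes the nuclear import receptor importin beta, with a root-mean-square difference of 0.0264. Its normalized log2 signal was 7.24, 7.37 and 7.48 in the WT samples and 8.72, 8.29 and 7.97 in the APP/PS1 samples. The same circRNA came closest to mmu_circRNA_010003, at 0.0527. Next for both was mmu_circRNA_19106 of Zswim6, at 0.0471 and 0.0638. For mmu_circRNA_005340 there followed mmu_circRNA_45718 of Chm, which encodes Rab escort protein, mmu_circRNA_43178 of Elmod2 and mmu_circRNA_45378 of the transcript AK170409, at 0.0541, 0.0669 and 0.0758. For mmu_circRNA_010003 there followed mmu_circRNA_32294 of Ostf1, mmu_circRNA_28839 of St13, an Hsp70-binding cochaperone, and mmu_circRNA_28493 of Rims2, a presynaptic scaffold, at 0.0734, 0.0746 and 0.0773. All of these except the Ostf1 circRNA were on the list of differentially expressed circRNAs, so their likeness to the Anks1b pair includes the difference by which they were listed.

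Pairs of circRNAs from other host genes give a scale for the Anks1b pairs. In 35 pairs of 34 genes that share a start or an end, the median root-mean-square difference was 0.337 and the lowest 0.0563. In 174 pairs of 131 genes that share neither, the median was 0.295 and the lowest 0.0593. The Anks1b pair with the shared start was at 0.0441, or between 0.0422 and 0.0776 over the normalizations, background corrections and filters tried, and the pair with the shared end was at 0.335. Both circRNAs of the pair with the shared start were listed for a difference between the same genotypes, while the other pairs came from the held table whatever their values, so nothing is read from where that pair lies. Only 2 other genes had at least 4 circRNAs in the held table, Ptpn4 and Tasp1. The log2 fold changes of the 4 Anks1b circRNAs held there ranged from -0.51 to 0.94, a range of 1.45, against 0.627 for the 4 of Ptpn4 and 0.468 for the 5 of Tasp1. Its upper end, 0.94, is mmu_circRNA_010003, the 1 of the 4 that was also on the list of differentially expressed circRNAs. The next highest was 0.44 for mmu_circRNA_002573. These ranges were not tested.

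The postsynaptic partners and neighbours of AIDA-1 were followed through 14 circRNAs of 13 of the 40 listed genes. Past the thresholds on fold change and unadjusted limma p, 0 were higher and 1 was lower, beside 3.15% and 2.26% of all probes, and the median log2 fold change was -0.06, beside -0.01 for all probes. The lower one, mmu_circRNA_32328 of Apba1, an adaptor that binds the amyloid precursor protein, had a log2 fold change of -0.75 with a standard error of 0.25 and an adjusted limma p of 0.193. The next largest were 0.53 for mmu_circRNA_43694 of the AMPA receptor subunit gene Gria4, with an adjusted limma p of 0.176, and 0.50 for mmu_circRNA_41597 of Apba2, which is itself on the list of differentially expressed circRNAs. A circRNA of the partner gene Dlg1, mmu_circRNA_017645, was held only through that list, at 1.39, and is outside these counts.

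Since Anks1b is known from neurons, circRNAs of neuronal marker genes were looked at beside its members. Of 26 neuronal genes, 8 had a circRNA in the held table, and all 8 circRNAs were well above background on all 6 arrays, as were 11887 of the 13420 probes tested. Past the same thresholds, 0 of 8 were higher and 0 lower, beside 3.15% and 2.26% of all probes, so nothing is read from this count, and their median log2 fold change was 0.00067. The summed normalized signal of these 8 was 458, 415 and 468 (linear intensity) in the WT samples and 437, 379 and 426 in the APP/PS1 samples. Before normalization the sum was 434, 388 and 398 in the WT samples and 402, 483 and 479 in the APP/PS1 samples. The genotypes overlapped in both sums, though before normalization 2 of the 3 APP/PS1 samples lay above all WT samples. Held only through the list of differentially expressed circRNAs, and so outside these counts, were 2 more of the neuronal genes' circRNAs, both higher in APP/PS1 samples. These were mmu_circRNA_24460 of Rbfox3, which encodes the neuronal nuclear protein NeuN, at 0.70, and mmu_circRNA_28493 of Rims2, at 0.95, the latter among the nearest profiles to mmu_circRNA_010003. Another Rims2 circRNA, mmu_circRNA_011266, is among the 8 counted, with a log2 fold change of 0.04 and a standard error of 0.44. Among the 8 counted, the largest differences were -0.53 for mmu_circRNA_003161 of Rims1, with an adjusted limma p of 0.163, then 0.17 for mmu_circRNA_38583 of Kcnip4 and 0.17 for mmu_circRNA_36380 of Lrrc7.

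Of 33 microglial genes, the held table had 3 circRNAs of 2, and those of Cx3cr1, P2ry12 and Tmem119 were not among them, so the label of the cells was not checked here against these defining markers. The log2 fold changes were -0.57 and -0.07 for mmu_circRNA_20401 and mmu_circRNA_013079 of Dock10 and -0.45 for mmu_circRNA_20499 of Inpp5d. Their standard errors were 0.36, 0.11 and 0.26, and their adjusted limma p 0.468, 0.790 and 0.422. The spot of mmu_circRNA_20401 was well above background on 4 of 6 arrays. None of the 3 passed the thresholds, beside 3.15% of all probes higher and 2.26% lower, so nothing is read from this count. Their summed normalized signal was 218, 245 and 203 in the WT samples and 223, 127 and 176 in the APP/PS1 samples, with APP/PS1 replicate 2 the lowest. Before normalization the sum was 206, 227 and 172 in the WT samples and 205, 162 and 200 in the APP/PS1 samples. The genotypes overlapped in both sums. The astrocyte list had 1 circRNA, mmu_circRNA_34116 of Slc1a2, at -0.04, and the list for oligodendrocytes and their precursors had 1, mmu_circRNA_26649 of Vcan, at -0.16. The endothelial list and that of other myeloid cells had 0. A circRNA is not the messenger RNA of its host gene, and the part of other cell types in the Anks1b signals was not tested.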

How the data were processed

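CircRNA was measured on 1-colour Agilent arrays in 3 WT and 3 APP/PS1 samples, grouped by the labels, 1 array each. The authors deposited the intensity of each spot from Feature Extraction 11.0.1.1, with local background and quality marks and not yet normalized. Their processed table, deposited as log2 values of 13420 probes after quantile normalization with limma, had medians between 6.19 and 6.20 (log2); the background correction behind it is not given in the sources used here, and its values differed from normexp with an offset of 16 by a median of at most 0.0109 on each array.

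Processed signals were log2 transformed and quantile normalized in R 4.3.3 with limma 3.58.1. Outlier spots were left out (0 to 6 per array; no circRNA spot was saturated, and no member spot was an outlier), and 13420 of 14236 circRNA probes were kept, those that 3 or more of the 6 arrays placed well above background, all 5 Anks1b circRNAs among them. The comparison of genotypes used lmFit and eBayes with no block, and Benjamini-Hochberg adjustment over all probes kept. The thresholds were a fold change of 1.5 with an unadjusted p of 0.05, and an adjusted p of 0.05. Summaries and figures used Python 3.11.15, pandas 2.3.3, numpy 2.4.6 and matplotlib 3.10.9. The fit was tested on simulated data.

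The members, lists and neighbours were chosen with earlier results of these data known. Named one by one were every Anks1b circRNA found by host gene, the 5 named circRNAs nearest in profile to each listed Anks1b circRNA, and the 3 largest absolute log2 fold changes of each list. The circRNAs of Dlg1 and Rbfox3, and the mentions of Rims2 circRNAs beside the neuronal list, were chosen after their values were seen. The authors' own fold changes, p-values and normalized columns in the annotation tables were not used. Alternatives covered normalization, background correction, filter, test, the authors' values, the replicate number as a block and leaving out each array; analysis without normalization was added after seeing the data. All arrays were on the same slide, so no slide block was fitted.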

Additional observations from a re-analysis of the deposited data

How the results depend on the processing

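Over 18 alternatives, mmu_circRNA_005340 and mmu_circRNA_010003 passed a fold change of 1.5 with an unadjusted p under 0.05 in 18 of 18, which their listing on these arrays makes no independent support. The circRNA mmu_circRNA_002573 passed both in 1 of 18, at 0.67 without normalization, and mmu_circRNA_22404 and mmu_circRNA_22415 in 0. Leaving out each array in turn gave log2 fold changes between 0.80 and 1.13 for mmu_circRNA_005340 and between 0.78 and 1.13 for mmu_circRNA_010003, lowest without APP/PS1 replicate 1. The range was 0.38 to 0.48 for mmu_circRNA_002573, -0.57 to -0.46 for mmu_circRNA_22404 and -0.61 to 0.26 for mmu_circRNA_22415, whose sign turned without WT replicate 1 (0.26) and without APP/PS1 replicate 3 (0.13). Over all alternatives the adjusted limma p lay between 0.0928 and 0.507 for mmu_circRNA_002573 and between 0.0657 and 0.663 for mmu_circRNA_22404. The filter for all 6 arrays left out mmu_circRNA_22415, which has 17 alternatives.

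The counts of all probes past both of these thresholds, 423 higher and 303 lower, were 197 and 90 with the median spot signal, 128 and 59 with normexp at an offset of 50, 211 and 100 at an offset of 16, 214 and 104 with the authors' values, 282 and 202 with the methods' t-test, and 1538 and 48 without normalization between arrays, which was chosen after seeing the data. Leaving out each array gave between 355 and 540 higher and between 234 and 508 lower, and the split turned to 355 higher and 508 lower without APP/PS1 replicate 1. At an adjusted p of 0.05, normexp at an offset of 50 gave 2, the methods' t-test 4 and analysis without normalization 249, beside 0. With normexp at an offset of 50, the shift between genotypes was 0.83 for mmu_circRNA_005340 minus mmu_circRNA_002573 and 0.12 for mmu_circRNA_005340 minus mmu_circRNA_010003, whose root-mean-square difference was 0.0776. The cause of these changes was not tested.

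With the replicate number as a block, 444 probes were higher, 305 lower and 0 past an adjusted p of 0.05; the log2 fold changes were as without the block, 0.97, 0.94, 0.44, -0.14 and -0.51 for mmu_circRNA_005340, mmu_circRNA_010003, mmu_circRNA_002573, mmu_circRNA_22415 and mmu_circRNA_22404. Deviations of samples with the same number correlated across probes, which are not independent replicates, at -0.25, -0.08 and -0.22. For that reason these values cannot show whether equal numbers mark a shared preparation. The labels do not state one, so samples with equal numbers were not taken as pairs. The signal of mmu_circRNA_22415 was 1.79 to 2.39 times its local background, and that of mmu_circRNA_002573 2.86 to 4.38 times.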
